A study of Mus musculus with 27 samples.

Results

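The arrays examined here follow the last step of the endothelial-to-hematopoietic transition, from committed hemogenic endothelium (HE2) to floating hematopoietic progenitors (HP), in mouse cells that received no doxycycline (DOX). The 4 arrays were chosen by their labels alone, 2 of HE2 and 2 of HP, from 27 arrays in the series. All cells came from A17 2lox-derived embryonic stem cells with a cassette for dnFOS, a dominant-negative FOS peptide that blocks AP-1 binding, inserted at the Hprt locus under a DOX-inducible promoter. Both groups carried this cassette with the inducer absent, at 0 days of DOX, so they are the uninduced cells of an engineered line and not an unmodified line. Clones of this line were picked after G418 selection, and the labels did not say how many clones were used. The stem cells were grown on feeder cells, differentiated as embryoid bodies for 3.75 days, enriched for FLK1+ cells on magnetic beads and cultured with VEGF and IL-6. HE2 was sorted from the adherent layer as KIT+ TIE2+ CD41+ and HP from the floating cells as KIT+ TIE2- CD41+. The labels did not say whether the 2 arrays of a group came from separate cultures, so the p-values measured only the spread between arrays, which may be technical.

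In this transition, endothelial cells of a hemogenic kind round up, lose their junctions and are released as blood progenitors. RUNX1 is required for the step, and its targets GFI1 and GFI1B repress endothelial genes. SOX7, SOX17 and SOX18 belong to the endothelial side, whereas PU.1 (encoded by Spi1), GATA1 and C/EBP alpha (encoded by Cebpa) direct the myeloid and erythroid branches. The comparison asked which genes differed in level between the adherent, committed cells and the progenitors that float off them. In sorted populations, fewer cells of a type and less RNA per cell cannot be told apart.

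RNA was measured on single-colour oligonucleotide arrays with 62976 spots, and each value is the log2 signal minus the 75th percentile of its array, so that 0 is the 75th percentile. This scaled log2 signal is used throughout for levels, and differences are HP minus HE2 in log2 units. Of 37208 genes or transcripts on the array, all called genes below, 20145 had a gene symbol. Of the 37208, 25351 were well above background on both arrays of at least 1 group and were tested. The scan of HE2 replicate 1 was dim, with a 75th percentile of 73.2 intensity units against 603 for HE2 replicate 2, 289 for HP replicate 1 and 396 for HP replicate 2. Accordingly, 51.1% of probes were well above background on HE2 replicate 1, against 62.4% to 74.8% on the other 3 arrays. Across the tested genes, which are not independent replicates, the replicates correlated at r = 0.909 for HE2 and 0.969 for HP. Replicate 1 of both groups lay on 1 slide and replicate 2 of both on another, so each slide gave its own difference.

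The sorting markers were checked first. Tek, which encodes TIE2 and separates the gates, was at 0.87 and 2.33 on the HE2 arrays and at 0.58 and -1.42 on the HP arrays. The difference of -2.01 had a standard error (SE) of 1.23 and did not pass the test (adjusted p = 0.835), and on the slide of replicate 1 it was only -0.29. Kit, the receptor for stem cell factor, was high on every array, at 3.94 and 4.39 in HE2 and 4.89 and 4.80 in HP. Itga2b, which encodes CD41, was at 2.64 and 3.77 in HE2 and at 3.25 and 3.01 in HP. The library labelled HP replicate 1 therefore had nearly the Tek level of its HE2 partner, and all 5 defining endothelial markers were above background on all 4 arrays. The summed scaled signal of these endothelial markers was 34.4 and 83.2 in HE2 against 31.1 and 28.9 in HP. On HP replicate 1, Tie1 and Pecam1 (4.09 and 1.37) were above HE2 replicate 1 (3.55 and 1.02), while Cdh5, Esam and Cldn5 were below it. The summed signal of 5 hematopoietic markers was 29.3 and 29.5 in HE2 against 75.4 and 91.6 in HP. Most of the HP sum was Coro1a and Vav1. Spi1 was also higher in HP, Ptprc overlapped, and Laptm5 was at 3.97 and 3.47 in HE2 and at 3.94 and 2.63 in HP.

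Bcl2a1d, a BCL2 family member that protects hematopoietic cells from apoptosis, was the single gene that changed beyond the threshold. It was at -4.11 and -2.04 in HE2 and at 0.63 and 1.83 in HP, so both HP arrays lay above both HE2 arrays. It rose by 4.31 (SE 0.63, limma adjusted p = 0.046), and the slides of replicates 1 and 2 gave 4.74 and 3.87. Only 1 of the 2 HE2 arrays measured the probe above background, so part of this size rests on a background reading of the dim array. With the lowest signal above background on that array (-2.86) in its place, a value added after the data were seen, the difference was 3.68, or 12.8-fold, and 3.48 on the slide of replicate 1. In addition, the near-identical copies Bcl2a1a and Bcl2a1b may share the signal of the probe. Without HE2 replicate 1 the difference was 3.27 (adjusted p = 0.423), without HP replicate 1 it was 4.91 (adjusted p = 0.121) and without HP replicate 2 it was 3.70 (adjusted p = 0.866). The call came from the fit over all 27 arrays, in which every group shares the estimate of the spread, and a fit to the 4 arrays alone did not call it.

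The promoter of Bcl2a1d is shown because it held letters that matched both a loose AP-1 pattern and a PU.1 motif. Phf11b and Pirb are shown with it, as the other genes called with the slide as a block whose promoters held the PU.1 letters. Phf11b and Pirb were chosen after their values were seen. Each is the 250 bases upstream of the start in RefSeq, build GRCm38.p6, written 5′ to 3′ on the strand of the gene, with motif matches in capitals. Bcl2a1d lies at chr9:88731851-88732100 (minus strand), Phf11b at chr14:59341331-59341580 (minus strand) and Pirb at chr7:3720383-3720632 (minus strand).
Bcl2a1d: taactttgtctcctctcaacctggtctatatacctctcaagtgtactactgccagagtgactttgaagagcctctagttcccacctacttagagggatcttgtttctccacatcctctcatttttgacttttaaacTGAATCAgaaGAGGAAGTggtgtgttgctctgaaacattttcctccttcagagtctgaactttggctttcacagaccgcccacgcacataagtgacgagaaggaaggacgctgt
Phf11b: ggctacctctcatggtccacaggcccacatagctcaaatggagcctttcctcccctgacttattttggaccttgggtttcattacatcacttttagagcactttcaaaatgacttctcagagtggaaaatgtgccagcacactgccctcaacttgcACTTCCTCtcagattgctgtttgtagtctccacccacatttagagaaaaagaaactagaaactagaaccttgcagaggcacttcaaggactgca
Pirb: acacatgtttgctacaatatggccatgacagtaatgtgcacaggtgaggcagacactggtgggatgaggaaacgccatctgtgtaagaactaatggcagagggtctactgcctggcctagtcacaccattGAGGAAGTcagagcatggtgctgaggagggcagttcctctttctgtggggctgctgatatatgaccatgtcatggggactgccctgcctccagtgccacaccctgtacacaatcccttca
The AP-1 letters TGANTCA, in which N is any base, began at position -114 of Bcl2a1d, 5′ of the PU.1 letters GAGGAAGT at -104. The match read TGAATCA, with A at the free base, and the AP-1 share of all genes below is for the same loose pattern. The PU.1 letters began at -94 of Phf11b, on the opposite strand, and at -120 of Pirb. Both strands were searched, and no searched motif overlapped another in these 3 windows. Of 29 genes called higher with the slide as a block, 18 matched a promoter and 3 of them held the PU.1 letters, against 2.79% of all 27025 genes with a promoter. The AP-1 letters were in 1 (7.82% of all genes), the TEAD letters GGAATG in 3 (14.4%), the RUNX letters TGTGGT in 3 (15.9%) and the GATA letters AGATAA in 2 (11.4%). A match is a description of the letters, not of binding.

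Over all genes, 1 was called higher in HP (0.00394% of those tested) and 0 were called lower (0%) at an adjusted p under 0.05 and at least 2-fold. At an unadjusted p under 0.05 there were 1534 genes (6.05%), and 712 of these were at least 2-fold higher (2.81%) and 815 at least 2-fold lower (3.21%), which is the unadjusted threshold used for the gene lists. Scaling changed this split, since quantile normalization gave 1394 higher and 940 lower and scaling on the median gave 1149 and 632. HE2 replicate 1 lay above HE2 replicate 2 for 764 of the 815 lower genes (93.9%, against 46.7% of all genes), although these genes were chosen on the same HE2 values. Of the 712 higher genes, 334 were not above background on HE2 replicate 1 (46.9%, against 16.8% of all). Without that array, 329 genes were at least 2-fold higher and 114 lower at an unadjusted p under 0.05, and without HE2 replicate 2 the counts were 2429 and 2470. Without HP replicate 1 they were 668 and 900, and without HP replicate 2 they were 304 and 229. Both HP arrays lay above both HE2 arrays for 15.4% of genes and below them for 14.8%. These shares are the background for the counts in all gene lists below. The median difference over all genes was 0.08. The part of the dim scan in these counts was not tested.

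The genes next in rank to Bcl2a1d did not pass the test, which has no slide term, but were far apart on both slides. With the slide as a block, those named here were called (limma adjusted p = 0.026 for each). Emilin2, an extracellular matrix glycoprotein, was at 0.86 and 1.19 in HE2 and at 4.71 and 4.45 in HP (difference 3.56, SE 0.59, adjusted p = 0.0803). Lpl, the lipoprotein lipase made by macrophages and adipocytes, was at -1.35 and -1.25 in HE2 and at 1.62 and 2.09 in HP (3.16, SE 0.54, adjusted p = 0.0803). Glipr1 was at -2.76 and -3.19 in HE2, where 1 of the 2 arrays measured it, and at 1.09 and 0.78 in HP (3.91, adjusted p = 0.0803). Rgs18, a regulator of G-protein signalling of platelets and their precursors, was at -2.01 and -1.03 in HE2 and at 1.32 and 1.79 in HP (3.08, adjusted p = 0.101). In all 4 genes the HP arrays lay above the HE2 arrays by more than the spread within either group.

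Among genes lower in HP, Scara5, a scavenger receptor for ferritin, was at -1.22 and -2.25 in HE2 and was not well above background on either HP array. It was at least 10.2-fold lower by the bound of the main scaling (adjusted p = 0.163). Fmnl2, a formin that builds actin filaments, was at 0.69 and -1.63 in HE2 and at -2.91 and -3.66 in HP (-2.82, adjusted p = 0.171). Ldb2, a LIM domain binding factor, was at 0.42 and 1.26 in HE2 and at -1.45 and -1.53 in HP (-2.33, adjusted p = 0.175). The homeobox gene Evx2 (adjusted p = 0.173) and the defensin gene Defa37 (adjusted p = 0.202) were also not well above background in HP. In HE2 Evx2 was at -2.19 and -3.93 and Defa37 at -2.27 and -3.86, both higher on the dim array. By the same bound they were at least 5.23-fold and 5.21-fold lower. Over the settings tried, the difference ranged from -4.12 to -1.27 for Scara5, from -4.73 to -0.95 for Evx2 and from -4.31 to -0.67 for Defa37. The bounds therefore do not hold in every setting. These 5 genes had the lowest p in that direction, and none passed the test.

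Endothelial genes were lower in HP for 23 of 25 tested members of the identity list (11611 of 25351 over all genes), with a median of -1.07 against 0.08 for all genes. Of these, 3 were at least 2-fold lower at the unadjusted threshold (3.21% over all genes) and 0 were higher (2.81%). Both HP arrays lay below both HE2 arrays for 14 (14.8% over all genes). None was called. Emcn, the sialomucin endomucin of venous and capillary endothelium, was at -0.82 and -1.12 in HE2 and at -3.75 and -4.86 in HP (-3.34, SE 0.93, adjusted p = 0.373). Ptprb, the phosphatase VE-PTP that acts on TIE2 and VE-cadherin, was at 2.90 and 2.70 in HE2 and at -0.31 and 0.03 in HP (-2.94, adjusted p = 0.819). Cldn5, a tight-junction claudin, was at 0.05 and -0.80 in HE2 and at -2.01 and -3.45 in HP (adjusted p = 0.819). For these 3 genes the groups did not overlap.

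Other endothelial genes overlapped or differed less. Cdh5, which encodes VE-cadherin, was at 3.69 and 5.2 in HE2 and at 3.26 and 3.73 in HP (-0.94, adjusted p = 0.933). Pecam1, which encodes CD31, was at 1.02 and 1.64 in HE2 and at 1.37 and -0.84 in HP, so that its difference was 0.35 on the slide of replicate 1 and -2.49 on that of replicate 2. Kdr, which encodes FLK1, was at 5.53 and 4.40 in HE2 and at 3.90 and 4.81 in HP. Mcam and Stab2, the members above 0, had differences of 1.34 and 0.50 and were named after their values were seen. The median of the identity list was -1.08 and -1.39 on the slides of replicates 1 and 2, -1.42 without HE2 replicate 1 and -0.93 without HP replicate 1. The count of 3 members at least 2-fold lower at the unadjusted threshold was 1 without HE2 replicate 1 and 1 without HP replicate 2.

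Of 15 tested endothelial transcription factors, 13 had differences below 0 and 1 was at least 2-fold lower at the unadjusted threshold, with a median of -0.32. The median was -0.78 without HE2 replicate 1, -0.13 without HP replicate 1, -0.60 without HP replicate 2 and 0.09 with scaling on the median, and without HE2 replicate 2 no member passed the threshold. The member past the threshold was Bcl6b, a repressor found in endothelium, at -0.56 and -0.01 in HE2 and at -2.64 and -3.10 in HP (-2.59, adjusted p = 0.618). Sox18 was at 2.00 and 3.08 in HE2 and at 0.12 and 1.05 in HP (-1.95, adjusted p = 0.861). Sox7 was at 0.29 and 1.62 in HE2 and at -1.24 and -0.14 in HP (-1.65, adjusted p = 0.896). Sox17 was at -1.29 and 1.22 in HE2 and at -2.54 and -0.96 in HP (-1.72, adjusted p = 0.868), and its groups overlapped. Sox7, Sox17 and Sox18 were thus lower on both slides, with SEs of 1.47 to 1.73 that were as large as or close to the differences.

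**Figure D1:**
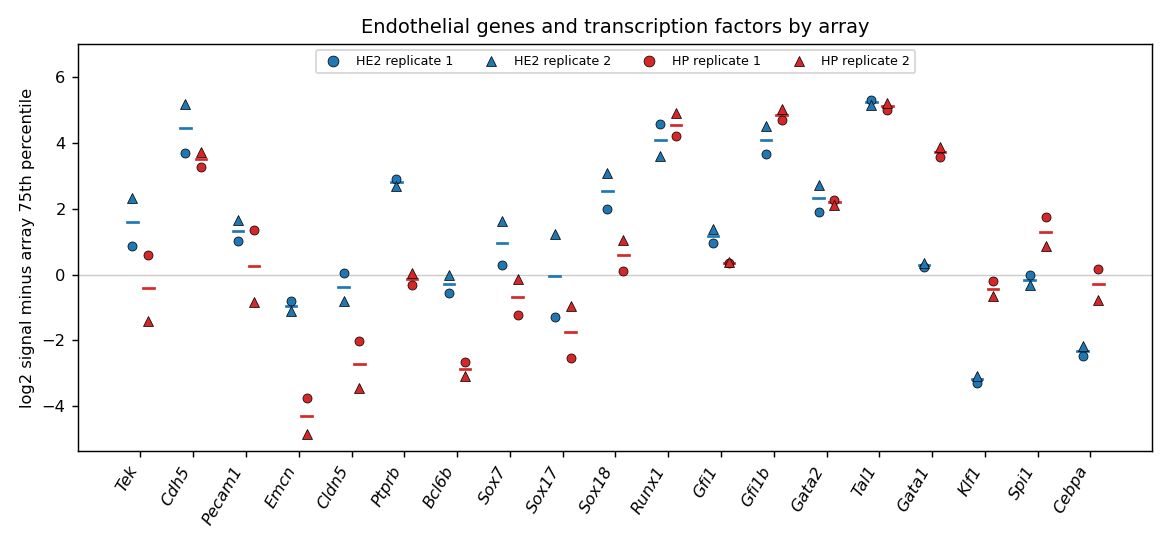
Scaled log2 signal (0 is the 75th percentile of the array) of endothelial genes and of transcription factors on each array, with HE2 in blue, HP in red, circles for replicate 1, triangles for replicate 2 and bars for the mean of 2 arrays. Gata1 is separated by over 3 log2 units on both slides, from 0.22 and 0.36 in HE2 to 3.57 and 3.87 in HP, while Runx1 and Tal1 overlap.

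Of 25 tested hematopoietic transcription factors, 18 had differences above 0 (13740 of 25351 over all genes) with a median of 0.48, 2 were at least 2-fold higher at the unadjusted threshold, and none was called. Gata1, the regulator of erythroid and megakaryocyte genes, was at 0.22 and 0.36 in HE2 and at 3.57 and 3.87 in HP (3.43, SE 0.85, adjusted p = 0.265). Cebpa, which directs myeloid genes, was at -2.47 and -2.17 in HE2, where 1 of 2 arrays measured it, and at 0.17 and -0.76 in HP (2.03, adjusted p = 0.517). Both factors separated the groups without overlap. Spi1 was at -0.01 and -0.31 in HE2 and at 1.74 and 0.86 in HP (1.46, adjusted p = 0.839). Gata1 had adjusted p = 0.137 with the slide as a block. The median of the list was 0.25 without HP replicate 2 and 0.74 without HP replicate 1, and 1 member was at least 2-fold higher at the unadjusted threshold without HE2 replicate 1 or without HP replicate 1.

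The factors that act earlier in the transition were already high in HE2. Runx1 was at 4.57 and 3.60 in HE2 and at 4.21 and 4.91 in HP (0.47, SE 0.68, adjusted p = 0.925). Gfi1b was at 3.67 and 4.51 in HE2 and at 4.69 and 5.02 in HP (0.76, adjusted p = 0.894), whereas Gfi1 was at 0.95 and 1.39 in HE2 and at 0.36 and 0.37 in HP (-0.81, adjusted p = 0.920). Tal1, a basic helix-loop-helix factor, was at 5.30 and 5.17 in HE2 and at 5.00 and 5.22 in HP, and Gata2 was at 1.91 and 2.73 against 2.26 and 2.13. The sign of the Gata2 and Tal1 differences turned with normexp background correction and with scaling on the median. Runx2, which had the largest negative difference of the list, was at 0.92 and -3.62 in HE2 and at -3.71 and -4.81 in HP, so the difference came mostly from the dim array.

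Most leukocyte genes had higher values in HP, although none was called. Of 24 tested pan-leukocyte genes, 23 had differences above 0 (13740 of 25351 over all genes) with a median of 1.26. At the unadjusted threshold 7 were at least 2-fold higher (2.81% over all genes) and 0 lower (3.21%). Both HP arrays lay above both HE2 arrays for 14 (15.4% over all genes). With the slide as a block, 2 were called. Coro1a, the actin regulator coronin 1A of leukocytes, was at 1.91 and 3.31 in HE2 and at 5.23 and 5.77 in HP (2.89, SE 0.60, adjusted p = 0.171). Cd44, the hyaluronan receptor, was at 0.95 and 1.03 in HE2 and at 2.95 and 2.78 in HP (1.87, SE 0.41, adjusted p = 0.171). Itga4, the integrin that binds VCAM1, was at 0.88 and 1.64 in HE2 and at 3.25 and 3.30 in HP (2.01, adjusted p = 0.373). Ptprc, which encodes CD45, was at -0.84 and -2.24 in HE2 and at 0.49 and -1.04 in HP, with overlapping groups. Without HE2 replicate 1 the median was 1.25 and 8 members were at least 2-fold higher at the unadjusted threshold.

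Of 27 tested myeloid genes, 23 had differences above 0 with a median of 1.22. At the unadjusted threshold 11 were at least 2-fold higher (2.81% over all genes) and 0 lower (3.21%). Cx3cr1, the fractalkine receptor of monocytes, was at -2.29 and -1.43 in HE2 and at 1.80 and 2.47 in HP (SE 1.05, adjusted p = 0.315, 15.9-fold). Tyrobp, the adaptor DAP12, was at 3.06 and 2.90 in HE2 and at 5.42 and 5.39 in HP (2.43, adjusted p = 0.325). Both genes had HP arrays well above HE2 arrays. Csf1r, the receptor for M-CSF, was at 3.26 and 2.88 in HE2 and at 2.99 and 3.77 in HP. Itgam, which encodes CD11b, was at 6.62 and 2.73 in HE2 and at 3.69 and 3.20 in HP, so its negative difference came from HE2 replicate 1 alone. The summed signal of 5 macrophage and granulocyte markers was 135 and 43.5 in HE2 against 101 and 117 in HP, and without Itgam it was 36.7 and 36.9 against 87.8 and 108. Most of the latter was Mpo, the myeloperoxidase of granulocyte precursors, at 4.72 and 4.79 in HE2 and at 6.24 and 6.54 in HP, while Lyz2 (-1.92 and 0.11 against -0.21 and -1.56) and Fcgr3 (-0.94 and -0.44 against 1.73 and -0.82) overlapped. Without HE2 replicate 1 the myeloid median was 0.87 with 5 members at least 2-fold higher at the unadjusted threshold, and without HP replicate 1 or HP replicate 2 there were 3 and 6 such members.

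**Figure D2:**
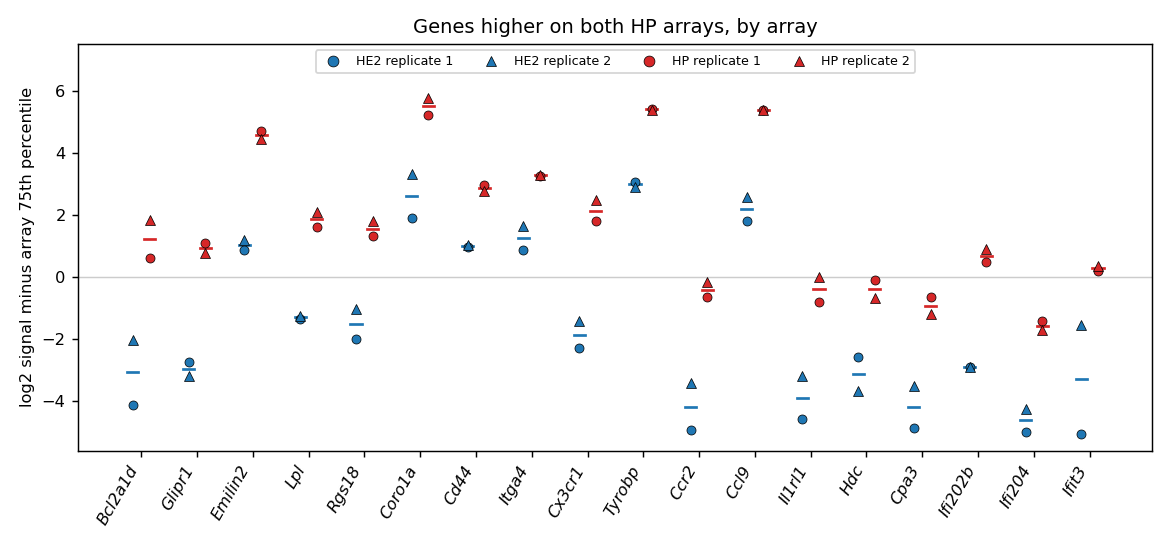
Scaled log2 signal (0 is the 75th percentile of the array) of leukocyte, myeloid, mast cell, interferon and cytokine receptor genes and Bcl2a1d on each array, with HE2 in blue, HP in red, circles for replicate 1, triangles for replicate 2 and bars for the mean of 2 arrays. Coro1a at 5.23 and 5.77 and Tyrobp at 5.42 and 5.39 in HP lie above all HE2 values of the same gene.

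Chemokines and their receptors had the largest median of the lists examined, 2.95 over 10 tested members, all with differences above 0. Of these, 7 were at least 2-fold higher at the unadjusted threshold (2.81% over all genes) and 9 had both HP arrays above both HE2 arrays (15.4%). Ccl9, a chemokine of myeloid cells, was at 1.79 and 2.58 in HE2 and at 5.38 and 5.37 in HP (3.19, adjusted p = 0.582). Ccr2, the receptor that guides monocytes, was at -0.66 and -0.17 in HP and was measured on 1 of 2 HE2 arrays (3.76, adjusted p = 0.339). With the lowest signal above background in place of the other HE2 reading, its difference was 2.72. None was called. The median was 2.26 without HE2 replicate 1, with 3 members at least 2-fold higher at the unadjusted threshold, and 4 members were so without HP replicate 2.

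Of 5 tested mast cell and basophil genes, Hdc and Cpa3 were at least 2-fold higher at the unadjusted threshold, 1 of them without HE2 replicate 1. Hdc, which makes histamine, was at -2.57 and -3.66 in HE2 and at -0.10 and -0.68 in HP (2.73, adjusted p = 0.309). Cpa3, the mast cell carboxypeptidase, had a difference of 3.26 (adjusted p = 0.627), or 2.25 with the lowest signal above background in place of the reading below it. For both genes, 1 of the 2 HE2 arrays was above background, and none of the 3 members detected in both groups passed the unadjusted threshold (median 0.77).

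Interferon response genes had a median of 1.28 over 18 tested, and 7 were at least 2-fold higher and 0 lower at the unadjusted threshold. Ifi202b, a DNA-binding member of the interferon-inducible p200 family, was at -2.91 on both HE2 arrays and at 0.47 and 0.91 in HP (3.60, SE 0.73, adjusted p = 0.171). Ifit3, which acts in antiviral defence, was at -5.05 and -1.55 in HE2 and at 0.20 and 0.35 in HP (3.58, adjusted p = 0.310), and Ifi204 had a difference of 3.05 (adjusted p = 0.171). All 3 were measured on 1 of 2 HE2 arrays, and with the lowest signal above background in place of the other reading the differences were 3.57, 2.48 and 1.99. Without HE2 replicate 1 the list median was 0.93, with 2 members at least 2-fold higher at the unadjusted threshold, and without HP replicate 2 there were 4. Of the 13 members detected in both groups 3 were so, with a median of 0.82.

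Of 17 tested cytokine receptors, 4 were at least 2-fold higher and 1 lower at the unadjusted threshold, with a median of 1.07. Il1rl1, the receptor for IL-33, was at -4.58 and -3.19 in HE2, where 1 of 2 arrays measured it, and at -0.80 and 0.00 in HP (3.48, SE 0.79, adjusted p = 0.180, and 2.62 with the lowest signal above background in place of that reading). With the slide as a block it rose with adjusted p = 0.026. Flt3, a receptor of early lymphoid and myeloid progenitors named after its values were seen, was the lower member, with a difference of -2.07 (adjusted p = 0.819). Its probe was measured on 1 of 2 HP arrays. The list had a median of 0.67 with 1 member higher and 0 lower without HE2 replicate 1, and of 0.72 with 1 higher and 0 lower without HP replicate 2.

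Of 19 tested erythroid genes, 16 had differences above 0 with a median of 0.89, and 3 were at least 2-fold higher at the unadjusted threshold. Klf1, the factor that drives adult globin genes, was at -3.29 and -3.08 in HE2, where 1 of 2 arrays measured it, and at -0.21 and -0.65 in HP (2.76, adjusted p = 0.75). Rhag, a red cell membrane protein, was not well above background in HE2 and was at least 1.81-fold higher in HP under the main scaling (adjusted p = 0.803). Its difference ranged from 0.06 to 2.51 over the settings tried. The erythroid median was 0.35 without HE2 replicate 1, 1.04 without HE2 replicate 2, 1.03 without HP replicate 1 and 0.60 without HP replicate 2. Of 21 megakaryocyte and platelet genes, 3 were at least 2-fold higher and 1 lower at the unadjusted threshold. Thbs1, thrombospondin 1 of platelets, was at -0.47 and 1.80 in HE2 and at 2.23 and 3.57 in HP (2.24, adjusted p = 0.682). P2ry12, the platelet ADP receptor, was at least 3.01-fold higher under the main scaling (adjusted p = 0.75), with differences from 0.25 to 3.39 over the settings tried. Vwf, which endothelium and platelets share, was the lower member, at 1.89 and 0.98 in HE2 and at -0.32 and -0.98 in HP (-2.09, adjusted p = 0.767). The groups did not overlap for Vwf, and 1 megakaryocyte and platelet gene was higher and 0 were lower without HE2 replicate 1 or without HP replicate 2.

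Several matrix and mesenchymal genes differed between the HP arrays. Col1a1, a chain of type I collagen, was at -1.99 and -4.06 in HE2 and at -0.19 and 1.36 in HP (3.61, SE 1.39, adjusted p = 0.75). Acta2, smooth muscle actin, was at 4.50 and 4.04 in HE2 and at 5.03 and 6.70 in HP (1.60, adjusted p = 0.803). Pdgfrb, a receptor of pericytes and fibroblasts, was at -0.95 and -0.14 in HP and was measured on 1 of 2 HE2 arrays, as was Hand1, a mesodermal factor at -1.74 and -0.36 in HP. For these 4 genes HP replicate 2 was the higher HP array, as it was for 16 of 21 tested collagen and matrix genes, 9 of 11 smooth muscle genes and 4 of 8 fibroblast and mesenchyme genes, against 14873 of all 25351 genes (58.7%). Members that went the other way included Bgn, Col6a2 and Dcn, named after their values were seen. The summed signal of 5 smooth muscle markers was 257 on HP replicate 2 against 47.4 on HP replicate 1 and 52.4 and 55.7 in HE2, and that of 5 fibroblast markers was 5.54 against 2.17, 0.812 and 0.83. The part of these markers in the result was not tested. Across 21 tested collagen and matrix genes, 13 had differences below 0 with a median of -0.47, which was 0.20 without HE2 replicate 2 and 0.27 without HP replicate 1.

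Several lists held no gene past the unadjusted threshold. Of 25 tested cell division genes, 0 were at least 2-fold different in either direction at the unadjusted threshold, and the median was 0.26, with values from -0.28 without HE2 replicate 1 to 1.08 without HE2 replicate 2. The same count of 0 held for 15 genes of ribosome biogenesis and MYC (median 0.50), 6 CDK inhibitors (0.11), 7 pluripotency genes (-0.25) and 12 members of the AP-1 family (0.61). Leaving out HE2 replicate 1 made these medians 0.12, -0.28, 0.18 and 0.38, in the same order. Without HE2 replicate 2, 3 cell division genes, 1 CDK inhibitor and 1 AP-1 gene were higher and 2 pluripotency genes were lower, and without HP replicate 1, 1 AP-1 gene was higher and 1 pluripotency gene lower. Fos, the AP-1 subunit that dnFOS imitates, was at 1.14 and 3.28 in HE2 and at 3.31 and 3.89 in HP (1.39, adjusted p = 0.831). The median of 15 Notch and arterial genes was 0.51, but 0.09 without HE2 replicate 1 and 1.17 without HE2 replicate 2. Of these genes, 1 was at least 2-fold higher at the unadjusted threshold. It was Jag1, a Notch ligand, at -0.84 and -0.19 in HE2 and at 1.34 and 1.5 in HP (1.94, adjusted p = 0.388).

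The other lists held few genes past the unadjusted threshold, and none was called. Of 20 adhesion genes, 1 was at least 2-fold higher and 2 were lower, but 1 was lower when any single HE2 or HP array was left out. Itgb5, an integrin chain that binds vitronectin, was at -1.31 and -1.63 in HE2 and at 0.26 and 1.14 in HP (2.17, adjusted p = 0.442), and Itga9, an integrin chain of lymphatic endothelium, was at 0.62 and 0.48 in HE2 and at -1.19 and -0.87 in HP (-1.58, adjusted p = 0.711). The groups were separated for both. Of 6 transcription factors of epithelial-to-mesenchymal transition, Snai2 and Twist2 passed the unadjusted threshold (adjusted p = 0.819 for both), each measured on 1 of 2 HE2 arrays and higher on HP replicate 2 than on HP replicate 1. With the lowest signal above background in place of the other reading, the slide of replicate 1 gave 0.45 for Snai2 and -0.52 for Twist2. None of the 6 passed without HE2 replicate 1 or without HP replicate 2, and only 2 members were detected in both groups, with a median of 0.49. Of 19 genes of TGF-beta and BMP signalling, 2 were higher and 0 lower, with a median of -0.01, but 0 were higher and 3 lower without HE2 replicate 1, and 0 higher and 2 lower without HP replicate 2. Tgfbr1, the type I receptor for TGF-beta, was at 1.13 and 2.29 in HE2 and at 3.01 and 3.18 in HP (1.39, adjusted p = 0.75).

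Of 18 TEAD and Hippo genes, 1 was higher, namely Tead3 (adjusted p = 0.461), which was measured on 1 of 2 HE2 arrays. With the lowest signal above background in place of the other reading, its difference was 0.82, and -0.85 on the slide of replicate 1, so its direction there is not settled. Of 12 immediate early and stress genes, 2 were higher, Egr1 at 2.85 and 3.43 in HE2 and 4.32 and 4.14 in HP (1.1, adjusted p = 0.819) and Egr2 (1.95, adjusted p = 0.759). The count was 0 without HE2 replicate 1 or without HP replicate 1. Of 17 glycolysis and hypoxia genes, 1 was higher, the glucose transporter Slc2a1, at 3.00 and 4.34 in HE2 and at 4.49 and 6.14 in HP (1.65, adjusted p = 0.79), and 0 were without HE2 replicate 1 or without HP replicate 2. Of 12 stem cell related genes, 1 was higher, Ly6a, which encodes SCA1, measured on 1 of 2 HE2 arrays (1.73, adjusted p = 0.819), and 0 were without HE2 replicate 1, HP replicate 1 or HP replicate 2, with 1 lower in the first case. The medians of these 4 lists were 0.43, 0.62, 0.24 and 0.23, against 0.08 for all genes. Without HE2 replicate 1 they were -0.29, 0.28, -0.04 and 0.04, and without HP replicate 2 they were -0.06, 0.13, -0.06 and -0.10. The TEAD and Hippo median was 0.81 without HE2 replicate 2.

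A gene could enter the test through 1 group alone, which favours members that are low in the other. With detection on both arrays of both groups, 19989 genes remained, of which 378 were at least 2-fold higher and 488 lower at the unadjusted threshold. There, 6 of 22 pan-leukocyte genes were higher (median 1.26), 9 of 23 myeloid genes (1.15), 4 of 7 chemokines and receptors (2.71), 3 of 13 cytokine receptors (0.86), 1 of 14 erythroid genes (0.83) and 1 of 23 hematopoietic transcription factors (0.48), and 3 of 24 endothelial identity genes were lower (-1.12). The direction of these medians was the same as with all tested members.

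**Figure D3:**
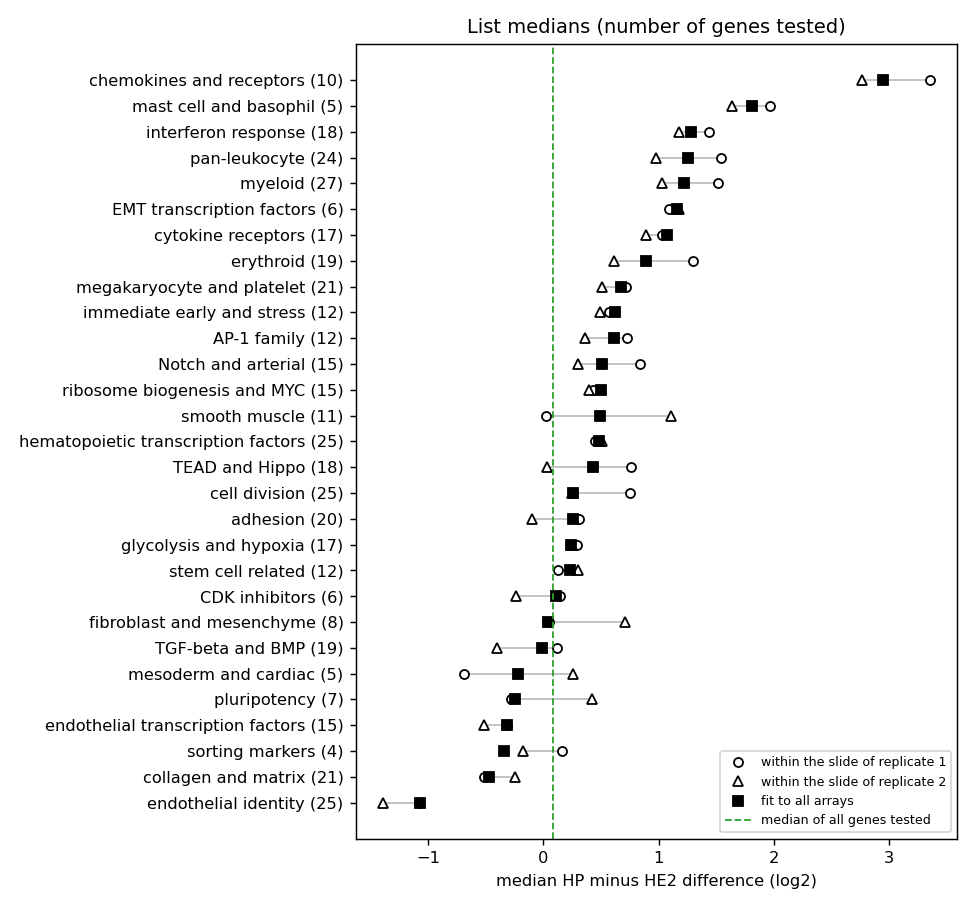
Median log2 difference HP minus HE2 of each gene list (squares, all 4 arrays) and its value on the slide of replicate 1 (open circles) and of replicate 2 (open triangles), with the median of all genes as a dashed line. Chemokines and receptors lie highest at 2.95 and endothelial identity lowest at -1.07, and both lie on the same side of the line on each slide.

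With the slide as a block, 29 genes were called higher (0.114% of those tested) and 1 lower (0.00394%). At the unadjusted threshold this fit gave 1665 higher (6.57%) and 1714 lower (6.76%) genes. It put 12 of 24 pan-leukocyte genes, 12 of 27 myeloid genes and 9 of 10 chemokines and receptors higher and none of them lower, and 6 of 25 endothelial identity genes lower and 1 higher. Besides Bcl2a1d, the higher genes included Emilin2, Lpl, Glipr1, Rgs18, Coro1a, Cd44 and Il1rl1. Among others, named after their values were seen, Hp, which encodes haptoglobin, was at 1.12 and 0.01 in HE2 and at 4.22 and 4.18 in HP, a rise of 3.64 (adjusted p = 0.026 with the slide as a block). Ifitm1, an interferon-induced membrane protein, was at 2.43 and 2.67 in HE2 and at 5.15 and 5.19 in HP, a rise of 2.62 (adjusted p = 0.026 with the block). A transcript without a symbol, also called higher, lay close to Ifitm1, at 2.25 and 2.63 in HE2 and at 5.00 and 5.07 in HP. Both may measure 1 gene, which was not tested. Pirb, an inhibitory receptor of myeloid and B cells, was at -3.01 and -1.01 in HE2 and at 2.03 and 2.26 in HP (4.15, adjusted p = 0.0313 with the block), and 1 of 2 HE2 arrays measured it. The lower gene was Gulo, which makes vitamin C in mice, at 1.90 and -1.45 in HE2 and at -3.21 and -5.2 in HP (-4.43, SE 1.11, adjusted p = 0.0313 with the block and 0.281 without it), and only 1 of the 2 HP arrays was above background. Its HE2 arrays lay farther from each other than HE2 replicate 2 lay from HP replicate 1.

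**Figure D4:**
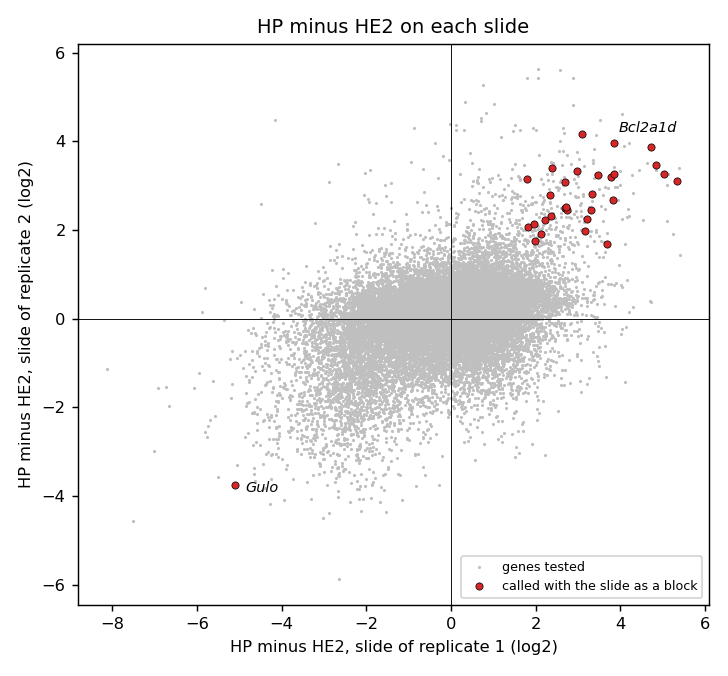
Difference HP minus HE2 (log2) of each tested gene on the slide of replicate 1 (x axis) against that of replicate 2 (y axis), with genes called with the slide as a block marked. Across genes, which are not independent replicates, r was 0.427, and Bcl2a1d lies at 4.74 and 3.87.

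The same step was measured in cells given DOX, on other arrays of the same slides, so slide effects may be shared. There, 0 of 24414 tested genes were called with or without the slide as a block, and 362 were at least 2-fold higher (1.48%) and 293 lower (1.2%) at the unadjusted threshold. The test of whether the step differed between untreated and DOX cells called 0 of 26110 genes, with 1010 (3.87%) at the unadjusted threshold. All 29 genes called higher with the slide as a block had differences above 0 with DOX, with a median of 1.88. Both HP arrays lay above both HE2 arrays with DOX for 24 of them, against 21.5% of the 24414 genes. However, the fit that called these genes included the DOX arrays, which helped set its slide terms and its spread. The DOX values are therefore not an independent check of the 29 genes, and 21.5% is not a matched background. Of 645 genes at least 2-fold higher at the unadjusted threshold and tested in both, 462 (71.6%) were above 0 with DOX, against 56.1% of 23655 genes. Of 588 genes at least 2-fold lower, 198 (33.7%) were below 0 with DOX, against 43.9% of all. The fit that chose the 645 and 588 genes also took part of its spread from the DOX arrays.

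**Figure D5:**
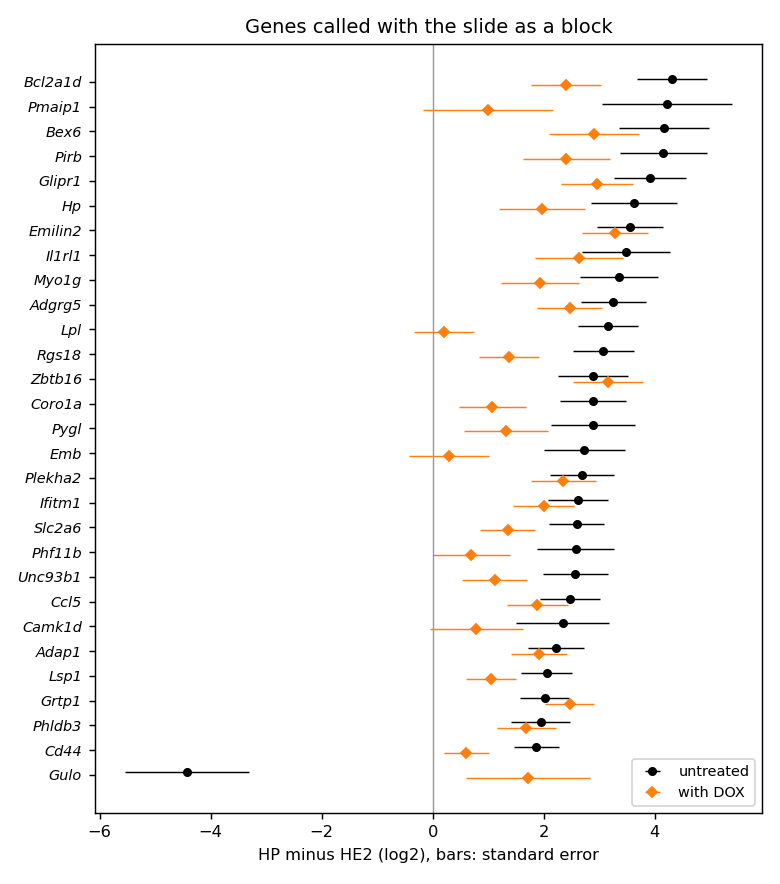
Difference HP minus HE2 (log2, bars are SE) without DOX (black) and with DOX (orange) for the genes with a symbol that were called with the slide as a block. The higher genes lie above 0 in both, from Emilin2 at 3.56 and 3.29 to Lpl at 3.16 and 0.21, while Gulo lies at -4.43 without DOX and 1.72 with it.

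Among named genes, Emilin2 differed by 3.56 without and 3.29 with DOX, Gata1 by 3.43 and 2.89, Emcn by -3.34 and -3.0 and Ldb2 by -2.33 and -2.93. Bcl2a1d differed by 4.31 and 2.41, Glipr1 by 3.91 and 2.96 and Rgs18 by 3.08 and 1.38. The other lower genes with the lowest p did not keep their size with DOX. Scara5 differed by -3.60 and -0.59, Fmnl2 by -2.82 and 0.10, Evx2 by -3.85 and 0.95 and Defa37 by -3.39 and -0.04. Lpl differed by 3.16 without DOX and by 0.21 with it, but the difference between the steps was not called (adjusted p = 0.920). The endothelial identity list had a median of -1.07 without and -1.78 with DOX, chemokines and receptors 2.95 and 1.33, and pan-leukocyte genes 1.26 and 0.44. These medians were not tested against each other.

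The preceding stage, uncommitted hemogenic endothelium (HE1), places the levels, although its comparison with HE2 uses the same HE2 arrays. Runx1 was at 0.25 and -0.35 in HE1, far under its values in HE2 and HP, and Gfi1b was at -0.60 and 0.31. Sox7 was at 3.88 and 4.51 in HE1, then 0.29 and 1.62 in HE2 and -1.24 and -0.14 in HP. Emcn was at 0.67 and 0.16 in HE1, which was closer to HE2 than HE2 was to HP. Gata1 was at -1.80 and -3.46 in HE1, under its values in HE2, which were in turn under those in HP. Bcl2a1d was not well above background on either HE1 array or on HE2 replicate 1, so its levels on these arrays have no order. On HE2 replicate 2 it was measured at -2.04, over the lowest signal above background of HE1 replicate 2 (-4.87).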

How the data were processed

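RNA of HE2 and HP cells was hybridised to Agilent SurePrint 8x60K mouse arrays, 1 colour. The deposited intensity values are the processed signal of Agilent Feature Extraction (version 10.7.1.1 in the submitters' processing notes, 10.7.3.1 in the file headers), and the authors also deposited a table of processed log2 values, used as an alternative. Here control spots were left out, log2 signals were centred on the 75th percentile of each array, and 1 probe per gene (the highest mean over 27 arrays) was kept. Of 55681 probes, 26582 were given a gene symbol by matching their transcript names to RefSeq transcripts. Genes well above background on both arrays of HE2 or HP were tested with limma 3.58.1 in R 4.3.3, with 13 group means over 27 arrays and Benjamini-Hochberg adjustment. A gene was called at adjusted p under 0.05 and at least 2-fold. The fit was tested on simulated data. For genes below background in 1 group, the fold is a lower bound under the main scaling. It is set, per array, against the higher of the reading and the lowest signal above background. Scans fell on 5 slides and 4 days, and slide was fitted as a fixed or random block. The number of arrays, 2 a group, limits precision.

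Named genes were a set of 20 stage and lineage genes, the 5 with the lowest p in each direction, and the 3 with the lowest p in each gene list. Members and lists were chosen with earlier results of these data known. Alternatives were normexp background correction with an offset of 50 on the median signal, quantile and median scaling, the authors' values, other detection filters, the mean of probes, blocks by replicate or slide, fewer arrays, a mean-variance trend, array weights, other thresholds and leaving out each array.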

Additional observations from a re-analysis of the deposited data

Results flagged for a closer look

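Gulo and Egr2 had steps from HE2 to HP that ran in opposite directions without and with DOX, with no overlap between HE2 and HP arrays in either condition. For Gulo the untreated step minus the DOX step was -6.15 on the log2 scale, with untreated values of 1.90 and -1.45 in HE2 and -3.21 and -5.2 in HP against -3.17 and -3.63 in HE2 and -0.72 and -2.65 in HP with DOX. Only 1 of the 2 untreated HP arrays was above background for Gulo, so this size rests partly on a background reading, and 1 of the 2 untreated HE2 arrays was for Egr2. For Egr2, an immediate early transcription factor, it was 2.95, with -3.98 and -2.38 in HE2 and -1.03 and -1.44 in HP without DOX against -1.26 and -0.75 in HE2 and -2.19 and -1.83 in HP with DOX. The test of the difference between the steps called neither gene (limma adjusted p = 0.920 for both).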

How the results depend on the processing

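The count of genes called, 1 higher and 0 lower in HP, depended on the processing. It was 53 and 0 with normexp, 60 and 3 with quantile normalization, 22 and 1 with median scaling, 169 and 15 with the authors' values, 29 and 1 with the slide as a fixed block and 73 and 15 with it as a random block. It was 2 and 0 with the mean of probes, 3 and 0 with a mean-variance trend and 4 and 0 at an adjusted p under 0.10. It was 0 and 0 with no filter, with detection in both groups, in the fits with only the 4 arrays compared or only the untreated arrays, and with array weights. Without 1 array the higher count ranged from 0 to 9 and the lower from 0 to 7, the highest without HE2 replicate 2. The unadjusted threshold gave 712 and 815. The difference between untreated and DOX steps, called for 0 genes, was called for 5 with quantile normalization and for 1010 at the unadjusted threshold. Of the 30 genes called with the slide as a fixed block, 16 were among those called with normexp, 14 with quantile normalization, 10 with median scaling and 24 with the authors' values. The replicate block, with numbers that coincide with the slides for HE2 and HP but not over all 27 arrays (deviations of same-numbered arrays correlated at 0.496 for HE2 and HP), gave 2 higher and 0 lower genes. The all-genes median ranged from -0.22 to 0.50. The cause of these changes was not tested.

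Bcl2a1d stayed above 0 at 2.54 to 5.34, with adjusted p from 0.000274 to 1, and was 3.68 with the floor of the array in place of the reading below background, an alternative chosen after seeing the data. Signs turned for genes near 0. With normexp Itga2b was 0.09, Gata2 0.06 and Tal1 0.15, and with median scaling they were 0.34, 0.29 and 0.29. Csf1r was 0 with quantile normalization and -0.06 with the mean of probes. Leaving out 1 array at a time, Itga2b ranged from -0.64 to 0.49, Runx1 from -0.02 to 0.96, Gata2 from -0.53 to 0.28, Itgam from -3.17 to 0.71, Csf1r from -0.08 to 0.70 and Pecam1 from -2.18 to 0.04, with Itgam above 0 without HE2 replicate 1. Signal over background limits the HE2 values, since the dim array had a floor of -2.86 against -5.88 on the other HE2 array.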
